A study of Mus musculus with 4 samples.

Results

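AP-1 and immediate early transcription factors were followed in cultured keratinocytes of newborn mice that were either control or deficient for Ovol2, which encodes a zinc-finger transcription factor of epithelia. The genes were taken by symbol from the authors' deposited expression table, as a list of 10: the AP-1 subunit genes Fos, Fosb, Fosl1, Fosl2, Jun, Junb and Jund, the related factor Atf3, and the early-response genes Egr1 and Ier3. All 10 were among the 23970 symbols of the table, and all 10 were among the 11350 genes with a mean level of at least 1 FPKM that were tested. Bulk RNA was sequenced from 2 control and 2 Ovol2-deficient libraries, all of passage 0 keratinocytes that had been grown in low-calcium medium on growth-arrested J2-3T3 feeder fibroblasts, with no further treatment. Cells were harvested short of confluence and the feeders were taken off first. The titles give the deficient libraries a code that the labels do not spell out, and the promoter or cell type in which Ovol2 was removed, and the strain, are not named in the sources used here. Whether the libraries came from separate animals is not stated either, so p-values measure the spread between these libraries, which may be technical.

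AP-1 is a dimer of basic leucine zipper proteins. Fos-family proteins cannot pair with each other and bind DNA as partners of Jun-family proteins, which can also pair among themselves. Growth factors, stress and wounding act through MAP kinases to switch on Fos, Fosb, Atf3 and Egr1 within minutes, and their short-lived transcripts then decay, whereas Fosl2 and Jund are present more steadily. In epidermis, AP-1 is known for its part in proliferation, wound repair and the transcription of differentiation genes.

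The genes lie on 9 chromosomes of the build mm10 and all are protein-coding (GENCODE M21). Fos (ENSMUSG00000021250.13) spans chr12:85473890-85477273, Fosb (ENSMUSG00000003545.3) chr7:19302696-19310051, Fosl1 (ENSMUSG00000024912.6) chr19:5447547-5455946 and Fosl2 (ENSMUSG00000029135.10) chr5:32135801-32157842. Jun (ENSMUSG00000052684.4) spans chr4:95049034-95052222, and Jund (ENSMUSG00000071076.6, chr8:70698949-70700616) and Junb (ENSMUSG00000052837.6, chr8:84974484-84978718) lie on the same chromosome. Jun and Jund have a single exon. Atf3 (ENSMUSG00000026628.13) spans chr1:191170296-191218039 and Ier3 (ENSMUSG00000003541.6) chr17:35821684-35822923, and the identifier of Egr1 is ENSMUSG00000038418.7.

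The stretch before the transcription start is shown for Fos, Fosb and Atf3, because these 3 genes varied most between libraries apart from Egr1. Each is the 150 bases before the RefSeq start, 5′ to 3′ on the gene's strand, build GRCm38.p6. Capitals mark matches to the motifs searched.
Fos, chr12:85473740-85473889, plus strand: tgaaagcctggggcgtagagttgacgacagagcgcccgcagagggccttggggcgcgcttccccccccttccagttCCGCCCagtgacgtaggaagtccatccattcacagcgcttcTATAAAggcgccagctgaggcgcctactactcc
Fosb, chr7:19310046-19310195, minus strand: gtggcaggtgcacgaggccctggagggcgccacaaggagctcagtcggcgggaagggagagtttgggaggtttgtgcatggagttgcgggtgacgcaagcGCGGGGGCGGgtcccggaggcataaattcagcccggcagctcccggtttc
Atf3, chr1:191183334-191183483, minus strand: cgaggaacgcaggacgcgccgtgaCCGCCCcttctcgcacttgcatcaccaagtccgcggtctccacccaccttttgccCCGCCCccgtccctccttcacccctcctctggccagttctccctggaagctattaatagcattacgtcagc
The Atf3 stretch lies inside the annotated span of the gene. In the Fos stretch the capitals are a GC box read on the opposite strand and a TATA box that begins 33 bases before the start. In Fosb a single run of capitals holds an Egr site and the GC box that overlaps it, and in Atf3 both runs are GC boxes on the opposite strand. RefSeq windows from 250 bases before to 50 after the start were at hand for 8 of the 10 genes, 1 window each, with none used for Fosl1 or Egr1. On either strand, the GC box GGGCGG was found in 6 of the 8 windows (Fos, Fosb, Fosl2, Jun, Atf3 and Ier3) and in 35.7% of all 32851 windows. The TATA box TATAAA was found in 2 (Fos and Junb) and in 13.6% of all windows. In Junb the match begins at base 1, the start itself, and not before it as in Fos. The Egr site GCGNGGGCG was found in 2 (Fosb and Fosl2) and in 5.55% of all. None of the 8 windows held the AP-1 site TGANTCA, the cyclic AMP response element TGACGTCA or the CArG box, which were in 7.81%, 1.79% and 1.63% of all windows. Only exact matches inside the window were counted. Variants of these sites and sites farther upstream were not searched, so their absence from these promoters cannot be read from this.

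Levels are in FPKM, that is, sequenced fragments scaled to the length of the transcript in kilobases and to the mapped fragments of the library. The depth of the libraries is not given in the files used here, so no counting interval is attached to any value. Pearson r between pairs of libraries, on log2(FPKM + 1) across the tested genes, ran from 0.972 to 0.987; genes are not independent replicates. Ovol2 itself stood at 2.68 and 2.14 FPKM in controls 1 and 2, and deficient libraries 1 and 2 had 1.45 and 0.941. Limma put the log2 fold change of Ovol2 at -0.64 (adjusted p = 0.129), while the authors' deposited table put it at -0.36 (adjusted p = 0.441). The limma value is one of FPKM + 1, which makes the change of a low gene smaller. In FPKM itself the deficient mean was 0.497 of the control mean. No source used here names the part of the gene that was removed, so the level of Ovol2 is only a partial check of the labels. Of 8 keratinocyte markers, all were present in every library, and their summed level was 6349 to 6716 FPKM in controls, against 5225 to 6102 with Ovol2 deficient. For 5 of the 8, both deficient libraries lay below both controls, as they did for 24% of all tested genes. For 0 of the 8 did both lie above. Fibroblast or feeder markers were low but present, at sums of 151.2 to 157.9 and 201.7 to 226.6. All 8 of those tested were higher in both deficient libraries than in both controls, as were 24.1% of all tested genes. Melanocyte markers summed to 62.2 to 67.7 and 84.2 to 90.8, with 6 of 6 tested higher in both deficient libraries. Immune markers were low but present, at sums of 5.862 and 12.41 FPKM in controls 1 and 2, against 10.09 and 7.655 with Ovol2 deficient. Of that list only Lyz2 was tested. Endothelial markers summed to 3.565 and 3.876, against 4.667 and 3.513, with Pecam1 and Kdr tested. Within these lists, the immune marker Cd207 and the endothelial marker Cdh5 were listed at 0 in all 4 libraries.

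Ier3, which encodes an early-response protein linked to cell survival, was the most abundant of the 10 genes, and only 3.63% of tested genes had a higher mean level. Its lowest library lay above the highest library of every other member. Junb and Jun came next, at means of 120.0 and 103.0 FPKM over the 4 libraries, and their ranges overlapped. Fosl2 followed at 52.3. Its range was narrow, lay below that of Jun and fell within that of Fos. Fos (37.7), Egr1 (35.8), Jund (34.1) and Atf3 (26.6) could not be ordered, since the ranges of Fos, Egr1 and Atf3 were wide and took in all 4 levels of Jund. Fosb (4.83) and Fosl1 (4.62) were the lowest and overlapped each other. The places of Fosl1 and Jund hold in the FPKM table alone, as described further on.

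**Figure D1:**
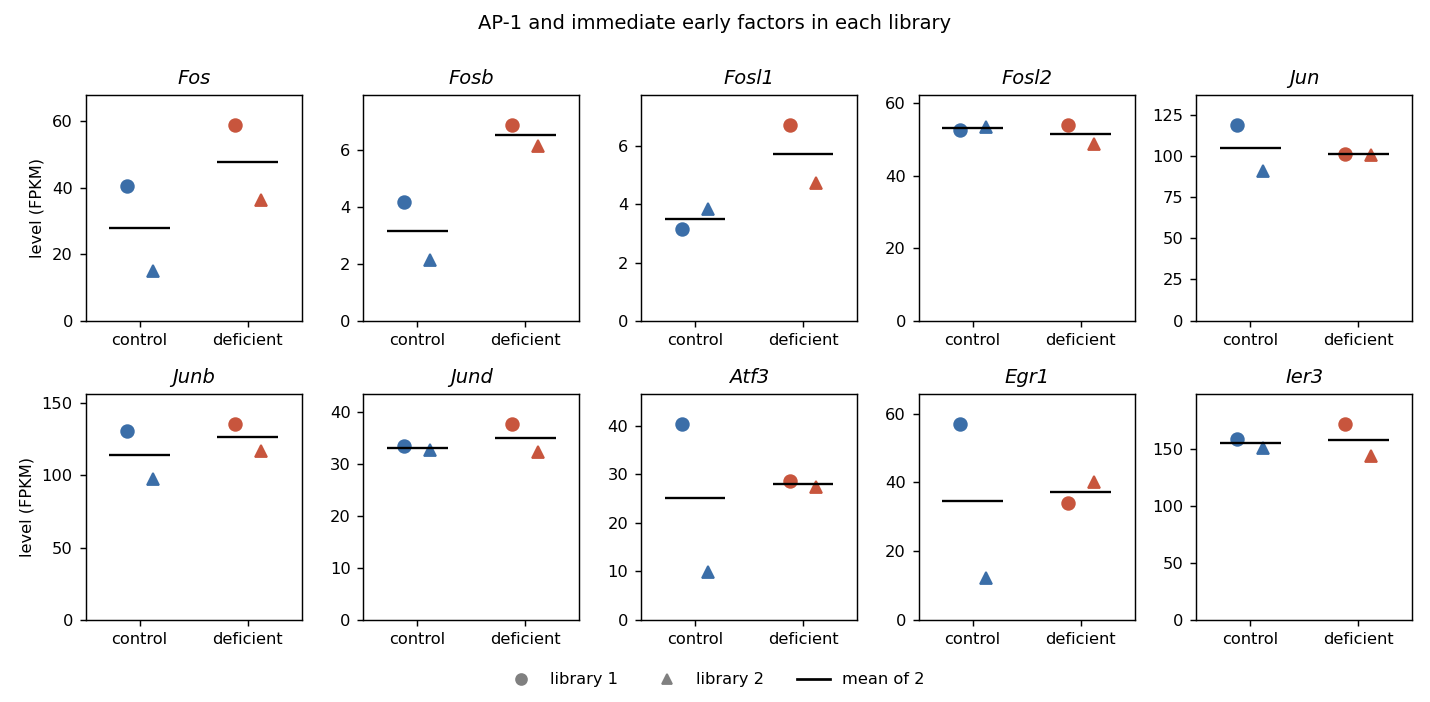
Level in FPKM of each of the 10 genes (vertical axis from 0, own scale per panel) in the 2 control libraries (blue) and the 2 Ovol2-deficient libraries (red), with circles for library 1, triangles for library 2 and a bar for the mean of 2. For Fosb and Fosl1 both deficient libraries lie above both controls, while Atf3 and Egr1 have their highest and their lowest library among the controls.

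Of the 10 genes, 0 passed limma's test at an adjusted p under 0.05, while 1.35% of all tested genes did. At an unadjusted p under 0.05 there were 2, Fosb and Fosl1, against 17.4% of tested genes. The authors' deposited table called those 2 higher in the deficient cells at an adjusted p under 0.05 and no other member, while over all genes it called 4.43%, with 2.33% higher and 2.1% lower. In 2 of the 10, again Fosb and Fosl1, both deficient libraries lay above both controls, as they did for 24.1% of tested genes, so this share is near the background. For 0 of 10 did both lie below, against 24% of tested genes. The median log2 fold change of the 10 genes was 0.30, and that of all tested genes was -0.0014. The members' median was -0.02 without control 2 and 0.06 in the authors' deposited table. Relative to the control mean, it stood at 0.20 in control 1 and -0.20 in control 2, against 0.30 and 0.20 in the deficient libraries, so control 1 was level with the second deficient library. Every fold change from limma is one of FPKM + 1, so the change of a low gene comes out smaller than in FPKM itself. Fold changes in the authors' deposited table come from the authors' own fit and normalized values. The 2 kinds of fold change are therefore not measured alike, and the source of differences in size was not tested.

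Fosb, which encodes a Fos-family activator, stood at 4.18 and 2.11 FPKM in the controls and at 6.89 and 6.13 in the deficient libraries. The groups did not overlap, and the libraries of the deficient group were closer to each other than those of the control group. Control libraries averaged 3.15 ± 1.46 FPKM and deficient libraries 6.51 ± 0.537 (SD, n = 2 per group). The deficient mean was 2.07 times the control mean in FPKM. On FPKM + 1 the log2 fold change was 0.90 (SE 0.23, 95% interval 0.36 to 1.44), which did not pass over all genes in limma (adjusted p = 0.106). The authors' deposited table gave Fosb a log2 fold change of 0.71 (SE 0.18, adjusted p = 0.00612).

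Fosl1, the gene of Fra-1, a Fos-family protein linked to migrating and invasive cells, stood at 3.14 and 3.86 FPKM in the controls and at 6.75 and 4.74 in the deficient libraries. Again the groups did not overlap, but the lower deficient library lay nearer to the higher control than to the other deficient library. Control libraries averaged 3.50 ± 0.504 FPKM and deficient libraries 5.75 ± 1.42 (SD, n = 2 per group). The log2 fold change was 0.57 (SE 0.17, 95% interval 0.17 to 0.98) and did not pass in limma (adjusted p = 0.150). The authors' deposited table gave Fosl1 a log2 fold change of 0.48 and an adjusted p of 0.0133. On the opposite strand, Ccdc85b shares 1163 bases of exon with Fosl1, whose exons span 2033 bases in all (GENCODE M21). The labels state no strand for the kit, so reads from the 2 genes may not be separable. Fibroblast or feeder markers were also higher in both deficient libraries, as given above, and their part in the levels of Fosb and Fosl1 was not tested; in bulk RNA, a change in the number of cells of a type and a change in RNA per cell cannot be told apart.

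Fos, the inducible founder of the family, stood at 40.5 and 15.0 FPKM in the controls and at 59.0 and 36.2 in the deficient libraries. The groups overlapped, because the lower deficient library lay below the higher control. In each group library 1 was above library 2, by 2.70-fold in controls and 1.63-fold in deficient cells. The log2 fold change of 0.87 had an SE of 0.42 and a 95% interval of -0.11 to 1.85, and it did not pass in limma (adjusted p = 0.347). For Fos the authors' deposited table, from another fit and other normalized values, gave a smaller log2 fold change of 0.17 (SE 0.17, adjusted p = 0.825). With the replicate number as a block, Fos and Fosb passed in limma (adjusted p = 0.0328 and 0.0341), in a fit that called 4.56% of tested genes. The numbers of the deficient libraries are those of the table's columns, and no label says that equal numbers share an animal or a day.

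Fosl2, the gene of Fra-2, was the steadiest of the Fos family. It stood at 52.5 and 53.5 FPKM in the controls and at 54.1 and 48.8 in the deficient libraries. The groups overlapped, and the 95% interval of its log2 fold change ran from -0.26 to 0.18. Fosl2 made up 52.3% and 71.8% of the summed FPKM of the Fos family in controls 1 and 2, against 42.7% and 50.9% with Ovol2 deficient. The share of Fos was 40.4% and 20.2% in the controls, against 46.6% and 37.7% with Ovol2 deficient. Fosl2 therefore held the larger share in every library except the first deficient one, where Fos did.

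The Jun genes, which encode the partners of the Fos proteins, differed little between the groups. Jun stood at 119.1 and 90.8 FPKM in the controls and at 101.3 and 100.7 in the deficient libraries, which both lay between the controls. Junb, which encodes a partner that in many settings is a weaker activator than Jun, stood at 130.4 and 97.5 FPKM in the controls and at 135.7 and 116.5 in the deficient libraries. Jund, whose product is the more constant Jun protein, stood at 33.5 and 32.7 FPKM in the controls and at 37.8 and 32.3 in the deficient libraries. All 3 overlapped between the groups. The log2 fold changes were -0.04 for Jun, 0.16 for Junb and 0.08 for Jund, with adjusted p in limma of 0.917, 0.669 and 0.779. Their 95% intervals were -0.36 to 0.27, -0.20 to 0.51 and -0.17 to 0.32, so a doubling of any of them, a log2 fold change of 1, lay outside the interval. Jund shares 877 of its 1668 exon bases with the antisense gene Gm11175, Jun shares 232 with the antisense gene Junos, and Junb shares 173 with Prdx2 on the other strand, so some reads of these genes are uncertain as well. Jun and Junb each made up 36.9% to 49.4% of the summed FPKM of the Jun family in every library, and Jund 11.8% to 14.8%. Per kilobase of exon in the authors' deposited table, the share of Jund was 25.5%, so its share depends on the table used. The summed FPKM of the Fos family over that of the Jun family was 0.355 and 0.337 in the controls, against 0.461 and 0.384 with Ovol2 deficient, with Fosl1 and Jund as the FPKM table gives them. Both deficient ratios lay above both controls, a description of the chosen genes to which no test was applied.

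Atf3, a stress-induced factor that pairs with Jun proteins, stood at 40.4 and 9.94 FPKM in the controls and at 28.6 and 27.5 in the deficient libraries. Both deficient libraries lay between the controls, which differed by 4.06-fold. Egr1, an early-response zinc-finger factor outside AP-1, had the same pattern. It stood at 57.1 and 12.1 FPKM in the controls, a 4.72-fold difference, and at 33.9 and 40.2 in the deficient libraries. For neither gene could a group difference be seen over the spread of the controls. The log2 fold change of Atf3 was 0.45 (SE 0.52, 95% interval -0.77 to 1.66, adjusted p = 0.729 in limma) and that of Egr1 was 0.46 (SE 0.58, 95% interval -0.90 to 1.82, adjusted p = 0.754 in limma). In the authors' deposited table they were 0.02 and 0.01. Ier3 stood at 159.0 and 151.3 FPKM in the controls and at 172.4 and 144.3 in the deficient libraries, with both controls between the deficient values. Its log2 fold change was 0.02, with a 95% interval of -0.24 to 0.29.

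The direction of Atf3 and Egr1 turned on which control was used. Without control 1, the log2 fold changes of Atf3 and Egr1 were 1.41 and 1.54 and both passed in limma (adjusted p = 0.00165 and 0.00217). Without control 2 they were -0.51 and -0.61 and did not pass (adjusted p = 0.0833 and 0.0792). Fos and Fosb kept their direction but not their size. Without control 1 the log2 fold changes of Fos and Fosb were 1.56 and 1.27 and passed in limma (adjusted p = 0.0200 and 0.00852), and without control 2 they were 0.19 and 0.53 and did not (adjusted p = 0.806 and 0.126). Without control 1, then, 4 of the 10 genes were called higher in a fit that called 3.5% of tested genes, and without control 2 there were 0 of 10 in a fit that called 1.28%. None was called without deficient library 1 or without library 2, in fits that called 0.0881% and 0.22%. With a control left out, that group holds a single library, which is taken to vary like the other group. For Fosl1 the log2 fold change was 0.36 to 0.79 with any library left out, and none of these passed in limma (adjusted p = 0.136 to 0.507). Without control 1 the median over the 10 genes was 0.41.

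**Figure D2:**
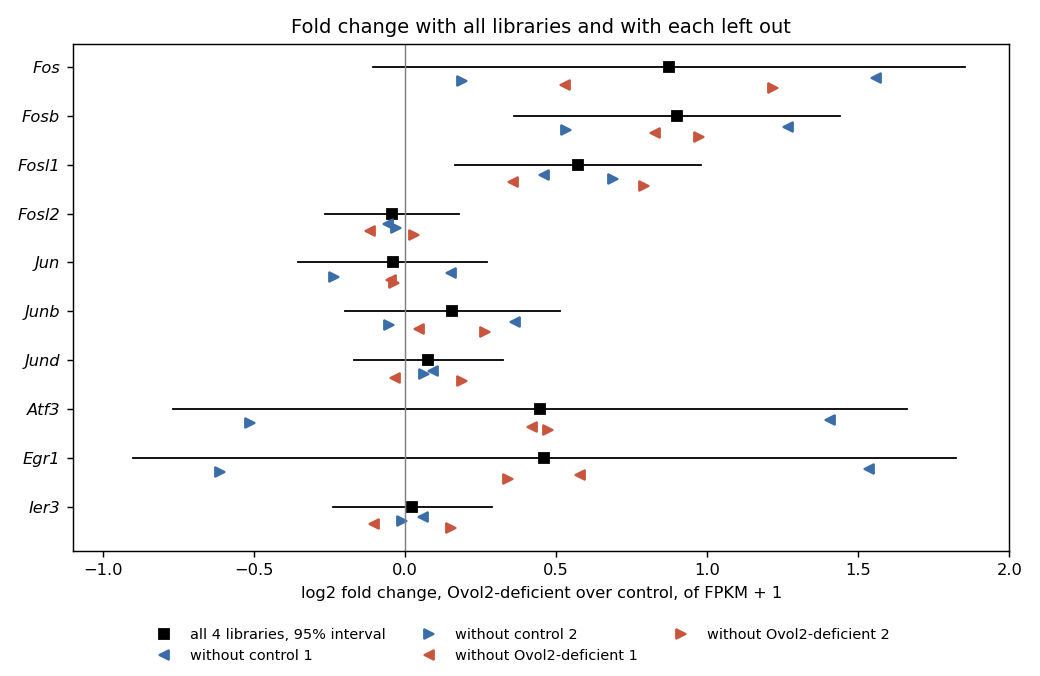
Log2 fold change of FPKM + 1, Ovol2-deficient over control (horizontal axis), for each of the 10 genes, with black squares and 95% intervals from limma on all 4 libraries and triangles for the fit without each library. The blue triangles of Atf3 and Egr1 lie on opposite sides of 0, at 1.41 and -0.51 and at 1.54 and -0.61, while all symbols of Fosb and Fosl1 lie above 0.

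The 2 controls differed more for Egr1, Atf3, Fos and Fosb than for most genes. Only 0.15% of tested genes had a control difference as large as that of Egr1, 0.194% as large as Atf3, 0.423% as large as Fos and 1.77% as large as Fosb. The share was 6.47% for Junb, 7.72% for Jun and 23.4% for Fosl1, which was higher in control 2. For Fosl2, Jund and Ier3 the controls differed by less than they did for 70.1% or more of tested genes. Between the deficient libraries Fos, Fosb, Jun, Junb, Atf3 and Egr1 differed less than between the controls, and Fosl1, Fosl2, Jund and Ier3 differed more. There, Fos had the largest difference of the 10, and 1.43% of tested genes differed as much or more. Fosl1 was the next, at 4.53%. Control 2 was the lowest of the 4 libraries for 6 of the 10 genes and for 29.1% of all tested genes. It was the lowest by at least 1.5-fold for 4 of the 10 (Fos, Fosb, Atf3 and Egr1) and for 1.8% of tested genes. Of 27 other immediate early genes tested, 9 had the same pattern, among them Egr3, Ier5, Klf2, Btg1, Btg2, Zfp36, Dusp1 and Trib1. This measure was chosen after the values had been seen. Markers of differentiating keratinocytes moved the same way, with 5 of 5 tested (Krt1, Krt10, Ivl, Lor and Sbsn) lowest in control 2. Their summed level was 383.3 FPKM there, against 629.3 in control 1 and 569.8 to 810.9 in the deficient libraries. Most of that sum was Sbsn, at 559.0 and 358.0 FPKM in controls 1 and 2. Of the 8 other keratinocyte markers, 2 were lowest in control 2, among them Krt15, at 41.9 and 13.1 FPKM in controls 1 and 2. Heat shock and dissociation stress genes did not move this way, since 2 of 12 tested were lowest in control 2 and 0 of 12 by 1.5-fold. All genes on that list are Hsp or Dnaj genes. The list holds none of the early-response genes above, and the part of dissociation or handling stress in their levels was not tested. The part that differentiation state plays in the levels of the members was not tested.

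**Figure D3:**
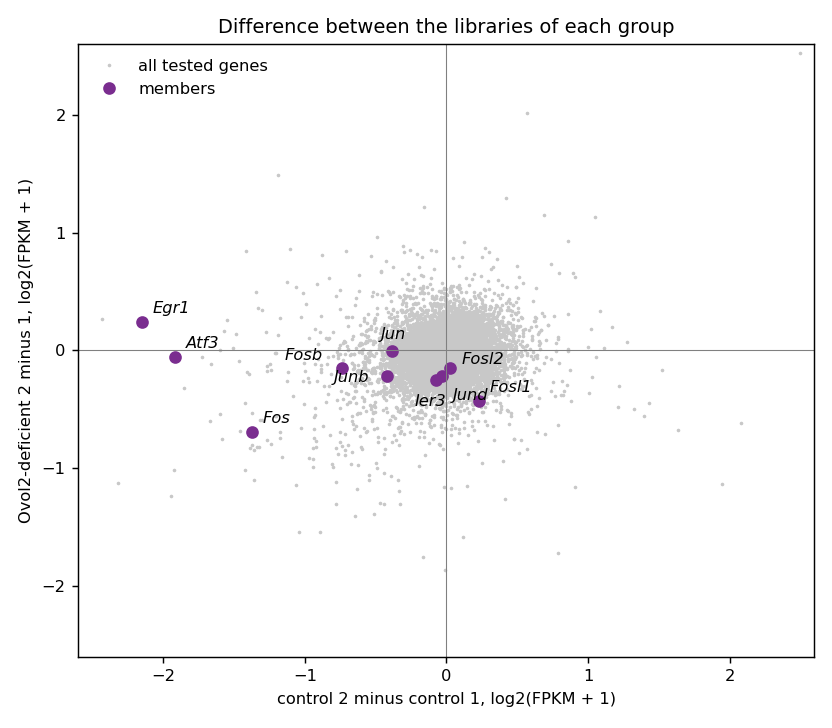
Difference between the libraries of each group in log2(FPKM + 1), control 2 minus control 1 on the horizontal axis and deficient 2 minus deficient 1 on the vertical axis, for all tested genes (grey) and the 10 members (purple); 25 tested genes lie outside the axes. Egr1, Atf3 and Fos lie far to the left, at -2.15, -1.92 and -1.37, and of these only Fos is also well below 0 on the vertical axis, at -0.69.

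Egr1 had the widest range of the 10 genes over the 4 libraries, and its nearest gene was another member. By the Euclidean distance of log2(FPKM + 1), centred on each gene's mean over the 4 libraries, Atf3 was the nearest of 8760 genes with a mean of at least 5 FPKM, at a distance of 0.264. Next were 8430408G22Rik (0.304), the Notch-regulated ankyrin-repeat gene Nrarp (0.428) and the stefin gene Stfa3 (0.463). Stfa3 has closely related copies, so its level is uncertain. Fos was at place 27, and Junb, Jun, Fosl2, Jund and Ier3 were at place 221 or beyond; Fosb and Fosl1, with means below 5 FPKM, were not among these genes. With 4 libraries this is a description, and it rests mainly on control 2.

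The 2 deposited tables did not place all members at the same level. The mean normalized value of the authors' comparison, divided by the exon length of the gene, was set against the mean FPKM for 10800 genes. Relative to the median gene, this ratio was 0.856 to 1.63 for 8 of the 10 members, and its upper quartile over all genes was 1.3. For Fosl1 it was 7.69, exceeded by 3 of the 10800 genes, and for Jund it was 2.91, exceeded by 34. Per kilobase of exon, Fosl1 stood at 340.7 in the authors' deposited table, close to Egr1 at 357.7 and well above Fosb at 45.8, whereas in FPKM it was level with Fosb. Jund stood at 951.3, above Fos at 498.4, Fosl2 at 429.2, Atf3 at 416.5 and Egr1. In mean FPKM it was below Fos, Fosl2 and Egr1. These 2 genes also share the largest part of their exon with a gene on the other strand, and the part that this overlap plays in the difference was not tested. The direction of Fosl1 between the groups was the same in both tables.

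**Figure D4:**
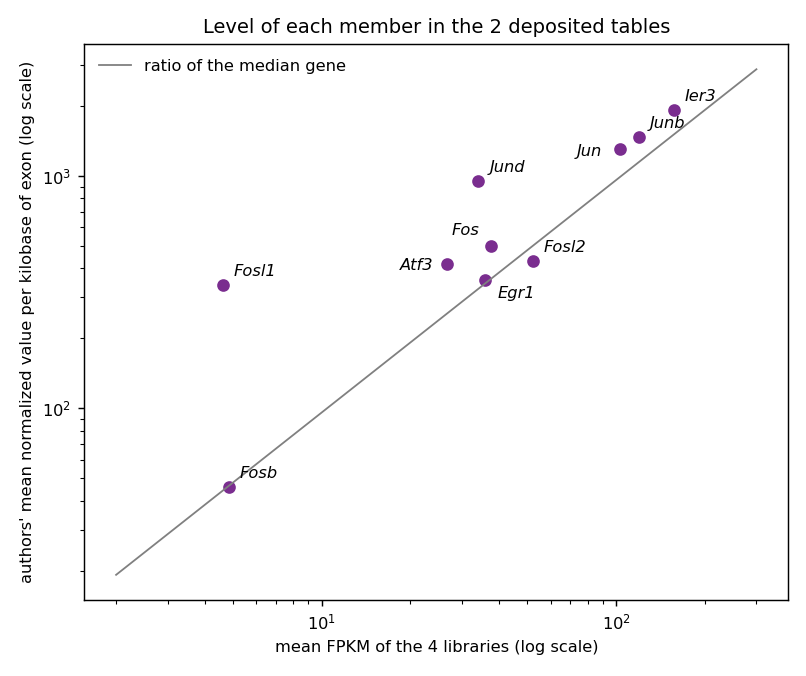
Mean FPKM over the 4 libraries (horizontal, log scale) against the authors' mean normalized value per kilobase of exon (vertical, log scale) for the 10 genes, with a line for the ratio of the median of 10800 genes. Fosl1 and Jund lie above the line, by 7.69-fold and 2.91-fold, and the other 8 lie near it.

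Genes that act with AP-1 were read from the same fit over all genes, in which 1.35% of tested genes passed and 17.4% had an unadjusted p under 0.05; the authors' deposited table called 4.43%. Of 18 tested partners and related basic leucine zipper genes, 0 passed in limma, 3 had an unadjusted p under 0.05 and the authors' deposited table called 1 higher. The smallest adjusted p belonged to Maff, a small Maf factor, at 14.9 and 12.1 FPKM in controls against 21.1 and 20.1 with Ovol2 deficient (log2 fold change 0.58, adjusted p = 0.0646 in limma). Next was the stress factor Ddit3 (log2 fold change 0.44, adjusted p = 0.147), and among lower values Creb1 had the smallest adjusted p (0.438). Maff was the 1 gene called higher in the authors' deposited table (adjusted p = 0.0314). Of 27 other immediate early genes, 0 passed in limma, 6 had an unadjusted p under 0.05, and the authors' deposited table called 2 higher and 1 lower. Their median log2 fold change was 0.16. Egr3, a relative of Egr1, stood at 1.31 and 0.582 FPKM in controls against 2.96 and 1.88 with Ovol2 deficient (adjusted p = 0.137). Ctgf, a matrix-associated gene also induced through YAP, stood at 214.3 and 191.1 against 159.1 and 151.4 (adjusted p = 0.111). The next in each direction were the kinase gene Plk3, at a log2 fold change of 0.36 with an adjusted p of 0.160, and Ier5l, at -0.56 with 0.153. Egr3 and Plk3 were the 2 called higher in the authors' deposited table (adjusted p = 0.0382 and 0.0208). Ctgf was the 1 called lower there (adjusted p = 0.00867). Without control 1, 10 of these 27 were called, 8 higher and 2 lower, in the fit that called 3.5% of tested genes. Without control 2, or without either deficient library, 0 of the 27 were called.

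Upstream of AP-1, 0 of 23 tested kinases and ternary complex genes passed in limma. At an unadjusted p under 0.05 there were 5, and the authors' deposited table called 2 lower. Srf, the serum response factor that binds the CArG box, stood at 24.4 and 26.0 FPKM in controls and at 17.97 and 18.8 in deficient libraries. Both deficient values lay below both controls (log2 fold change -0.44, SE 0.09), but the difference did not pass in limma (adjusted p = 0.0707). Map3k1, a kinase upstream of JNK, stood at 11.6 and 10.7 against 7.77 and 8.48 (adjusted p = 0.108). On the higher side the smallest adjusted p were those of the kinase genes Map2k7 and Braf (0.453 and 0.521). Srf and Map3k1 were the 2 genes called lower in the authors' deposited table (adjusted p = 0.00956 and 0.0213).

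Among 22 tested genes known as AP-1 targets, 3 rose in limma and 19 did not pass, against 0.837% of all tested genes that rose. At an unadjusted p under 0.05 there were 12, and the authors' deposited table called 6 higher and 1 lower. Il6, an inflammatory cytokine gene, rose from 4.66 and 4.75 FPKM in the controls to 9.06 and 9.64 in the deficient libraries (log2 fold change 0.86, SE 0.11, adjusted p = 0.0353). Areg, which encodes a ligand of the epidermal growth factor receptor, rose from 4.52 and 4.10 to 10.6 and 8.38 (log2 fold change 0.98, adjusted p = 0.0392). Ccl2, a monocyte-attracting chemokine gene, rose from 103.6 and 124.4 to 184.0 and 211.6 (log2 fold change 0.79, adjusted p = 0.0419). In the authors' deposited table Areg and Ccl2 were called higher (adjusted p = 0.00518 and 6.94e-05) and Il6 was not (adjusted p = 0.0914). In limma, 0 of these target genes were called with no filter on low values, with quantile normalization or without the variance trend. Those fits called only 3, 5 and 6 genes in all. In either direction, 2 were called with median-ratio scaling, 5 with a mean of at least 5 FPKM, 6 with robust empirical Bayes and 11 with the replicate block. Over all genes these latter fits called 82, 267, 461 and 518. The list median was 0.32, and single genes pointed the other way, such as the plasminogen activator gene Plau, at 51.8 and 47.3 against 23.5 and 33.4 (adjusted p = 0.0608), a gene chosen after its values had been seen. The authors' deposited table called Plau lower (adjusted p = 0.00067). Il6 and Ccl2 are also expressed by fibroblasts, whose markers were higher in the same libraries, and that part was not tested. Of 12 tested heat shock and dissociation stress genes, 0 passed in limma, 1 had an unadjusted p under 0.05, the authors' deposited table called 0, and the median was -0.03. The largest was Dnajb4, at 52.1 and 48.0 against 62.6 and 58.0 (adjusted p = 0.213). Hsph1 pointed the same way (adjusted p = 0.686), and Dnajb1 and Hspa1b the other way (adjusted p = 0.377 and 0.443).

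**Figure D5:**
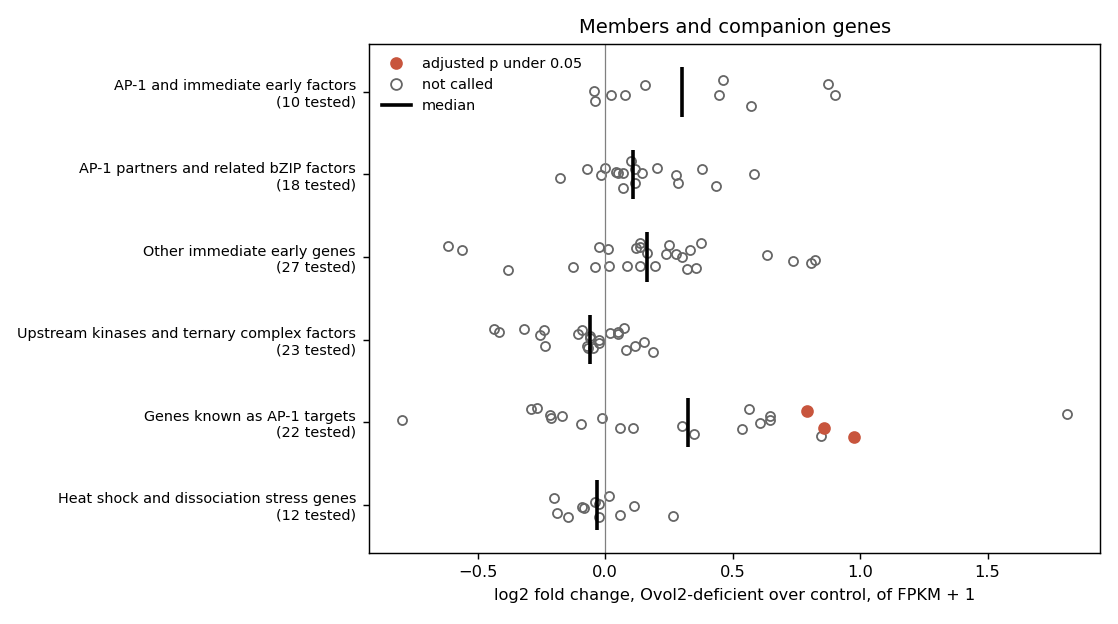
Log2 fold change of FPKM + 1, Ovol2-deficient over control (horizontal axis), for every tested gene of the 10 members and of 5 companion lists, with filled red circles for an adjusted p under 0.05 in limma and bars for the median. The 3 filled circles are the AP-1 target genes Ccl2, Il6 and Areg, at 0.79, 0.86 and 0.98.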

How the data were processed

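The authors deposited 2 tables. In the first, the authors had scaled each library to FPKM, per the file name in the labels and the file headers (24487 rows, with 1 repeated header line removed). The second compares mutant and control libraries in 24062 rows. Deposited in it are a mean normalized signal over all samples, log2 fold changes with standard errors, test scores, p-values and adjusted p-values, per the file headers. TopHat, HTSeq and the build mm10 are named, per the submitters' processing notes; versions, annotation and the tool that made the FPKM are not named there.

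The 27 rows whose symbol had turned into a date were dropped, and rows sharing a symbol were summed. Columns named mutant were assigned to the Ovol2-deficient group by name. Genes with a mean of at least 1 FPKM entered a fit of log2(FPKM + 1) against group alone in limma 3.58.1 (R 4.3.3, variance trend, Benjamini-Hochberg adjustment over all 11350 genes, threshold 0.05), and the code was tested on simulated data. With 2 libraries per group the smallest two-sided permutation p is 0.333, so each p depends on limma's model. The members and lists were chosen with earlier results of these data known. Companion genes were named by a rule: called genes, or else those with the smallest adjusted p in each direction; a few genes that the naming rules pick are not reported here. Of the markers listed, Flg was not matched. Gene coordinates and exon lengths are from GENCODE M21 and promoter windows from RefSeq, both on the same build as mm10. Protein sequences were not used here. Alternatives were other pseudocounts, filters, scalings and variance models, a replicate block, the authors' comparison and leaving out each library.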

Additional observations from a re-analysis of the deposited data

How the results depend on the processing

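The number of genes called in limma moved from 153 to 3 with no filter on low values, 267 with a mean of at least 5 FPKM, 5 with quantile normalization, 82 with median-ratio scaling, 6 without the variance trend and 461 with robust empirical Bayes. It was 518 with the replicate number as a block, 513 in the authors' deposited comparison, and 10 to 397 with 1 library left out. The count of members called, 0, became 2 with the block (Fos and Fosb), 2 in the authors' comparison (Fosb and Fosl1) and 0 to 4 with 1 library left out. Of the companion genes, 3 were called, against 0 with no filter, 0 with quantile normalization, 0 without the variance trend, 7 with a mean of at least 5 FPKM, 8 with robust empirical Bayes, 16 with the block, 13 in the authors' comparison and 0 to 17 with 1 library left out. The members' median log2 fold change of 0.30 was 0.116 with a mean of at least 5 FPKM (8 members, without Fosb and Fosl1), 0.055 in the authors' comparison and -0.021 to 0.41 with 1 library left out. The cause of these moves was not tested.

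No member changed direction under another pseudocount, filter, scaling or variance model, under the block or in the authors' comparison, except that Fosb and Fosl1 were not tested with a mean of at least 5 FPKM. With 1 library left out, log2 fold changes ran from -0.12 to 0.029 for Fosl2, -0.24 to 0.15 for Jun, -0.052 to 0.36 for Junb, -0.034 to 0.19 for Jund, -0.51 to 1.41 for Atf3, -0.61 to 1.54 for Egr1 and -0.10 to 0.15 for Ier3. Same-numbered libraries deviated together across genes (r = 0.220), but with 2 pairs and no label behind the numbers the block is not taken as a pairing. Depth is not given, so its limits could not be set.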

Other observations

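Several early-response genes outside the AP-1 list shared the low value of control 2. Dusp1, the gene of a phosphatase that switches MAP kinases off, stood at 136.9 and 57.5 FPKM in the controls and at 157.5 and 140.4 in the deficient libraries. Zfp36, whose product speeds the decay of AU-rich transcripts, stood at 166.0 and 86.8 against 152.0 and 140.1. Trib1, a pseudokinase gene, stood at 21.4 and 10.3 against 29.2 and 24.7. Not all early genes did so. Gadd45b stood at 32.7 FPKM in control 1 and 67.6 in control 2, its highest library, against 32.9 and 27.95 in the deficient libraries. Myc overlapped between the groups, at 167.2 and 146.1 against 148.6 and 137.7. These genes were chosen after their values had been seen.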
